A study of Mus musculus with 16 samples.

Results

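The genes described here are 8 mouse genes of renal glucose formation and ammonia formation: Pck1, Fbp1, G6pc, Slc37a4, Pcx, Glud1, Ldhb and Got1. They were taken by name, as every probe of the value table whose gene symbol in the platform annotation, updated through gene identifiers, is one of these 8. Of the 8 genes, 6 had a named probe, with 7 probes of 20355 on the array, since Glud1 had 2. Pck1 and G6pc had no named probe and no value is given for them. All 6 measured genes passed the requirement of a value in both dye orientations in at least 3 mice, and all 7 probes had a value on all 16 arrays.

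The tested kidneys came from 4 male mice aged 15 weeks and labelled MFP2-/-. The reference was 1 pool of RNA from 5 wild-type males of the same age, whose strain label is SWR/Ola Hsd. Hsd17b4 encodes MFP2, an enzyme of fatty acid beta-oxidation in peroxisomes. The mutants' background strain is not given in the labels used here, so genotype and strain cannot be told apart. How much wild-type animals vary among themselves is not known from a single pool. RNA of each mouse was hybridised against the pool on 4 two-colour cDNA arrays, 2 with the mutant in Cy5 and 2 with the mutant in Cy3. The labels do not name the kidney region, so the values are of RNA from whole organs as far as the sources used here say, and fewer cells of a type and less RNA per cell cannot be told apart.

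The kidney makes glucose mainly in the proximal tubule, from lactate, glutamine and other precursors, and releases it in fasting and acidosis. Pyruvate enters through pyruvate carboxylase, phosphoenolpyruvate is formed by the Pck1 product, and the last steps are the removal of phosphate by fructose-bisphosphatase and by the glucose phosphatase complex of the endoplasmic reticulum. Glutamine taken up by the same cells is turned into glutamate and then into alpha-ketoglutarate, which releases ammonia for the excretion of acid and supplies carbon for glucose.

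Values are log2 ratios of mutant over pool, centred on each array's median, so 0 is the ratio of the middle probe of an array and 1 is a doubling. The direction is not stated in the sources used here and is likely mutant over pool. The mutant is listed as the first channel in every label. A probe of the targeted gene also stayed below 0 in mice 1 and 2 when the dyes were exchanged. In a ratio of Cy5 over Cy3, a difference between mutant and pool would change sign with the dyes. A constant sign alone does not separate mutant over pool from pool over mutant. That probe of Hsd17b4 (4590) had ratios of -1.69, -1.50, -0.10 and -0.34 in mice 1 to 4, and lay between -2.08 and -1.10 on all 8 arrays of mice 1 and 2. It was above 0 on 2 of 16 arrays, at 0.066 in mouse 3 with the mutant in Cy5 and 0.471 in mouse 4 with the mutant in Cy3. The other Hsd17b4 probe (1446) had ratios of 0.02, 0.83, 0.34 and 0.52 in mice 1 to 4. In mouse 1 it changed sign with the dyes, at 0.421 and 0.166 in Cy5 and -0.055 and -0.46 in Cy3. The probes of the targeted gene thus disagreed, and in mice 3 and 4 neither was far below 0. The mice are called by their label for this reason. The arrays held 19737 to 20228 values each, their number limits the precision, and no intensity was used here.

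For the genes with the largest mean ratio, with the most CCAAT boxes and with the widest gap between dye orientations, the promoters are shown first. Each is the RefSeq window of GRCm38.p6, 5′ to 3′ on the gene's strand, from 250 bases before to 50 bases after the annotated start. Capitals mark the CCAAT box, written CCAAT or, on the other strand, ATTGG.
Ldhb (chr6:142507908-142508207, minus strand): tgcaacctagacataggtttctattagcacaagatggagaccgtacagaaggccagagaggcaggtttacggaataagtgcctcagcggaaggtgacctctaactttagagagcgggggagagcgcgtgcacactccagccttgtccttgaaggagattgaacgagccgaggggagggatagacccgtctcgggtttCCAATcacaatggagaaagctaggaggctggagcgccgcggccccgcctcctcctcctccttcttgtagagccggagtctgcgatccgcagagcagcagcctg
Got1 (chr19:43524556-43524855, minus strand): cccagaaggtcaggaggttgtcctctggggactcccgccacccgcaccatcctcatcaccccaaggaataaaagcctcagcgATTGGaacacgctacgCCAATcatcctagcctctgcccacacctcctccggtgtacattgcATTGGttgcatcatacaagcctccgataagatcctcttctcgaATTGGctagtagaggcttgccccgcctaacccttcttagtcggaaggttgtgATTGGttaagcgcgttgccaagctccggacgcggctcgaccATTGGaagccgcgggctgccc
Fbp1 (chr13:62888233-62888532, minus strand): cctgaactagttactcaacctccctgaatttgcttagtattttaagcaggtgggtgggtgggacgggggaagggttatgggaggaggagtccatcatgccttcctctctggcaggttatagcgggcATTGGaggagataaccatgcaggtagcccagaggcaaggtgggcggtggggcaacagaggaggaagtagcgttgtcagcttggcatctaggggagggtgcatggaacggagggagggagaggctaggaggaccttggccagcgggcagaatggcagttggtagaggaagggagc
The Got1 window, printed because it had the most CCAAT boxes, held 6 of them on either strand. Their first bases lay at -168, -152, -107, -64, -12 and 30 from the start. The Ldhb window held 1, at -53, and the Fbp1 window held 1 on the other strand, at -124. Of the members not printed, Pcx held 3 in its first window and 1 in its second, and G6pc held 2. Over all 32851 promoter windows of the table, 37.4% held CCAAT on either strand, so its presence in a window is common. All 8 genes had at least 1 window, 11 in all. The cyclic AMP response element was searched as TGACGTCA, found in 1.79% of all windows, and as TTACGTCA, found in 0.499%. Pck1, the unmeasured gene of phosphoenolpyruvate formation, held TTACGTCA at -93, and no measured gene held either form. The shorter letters TGACG, which lie within TGACGTCA and whose other strand overlaps TTACGTCA in Pck1, stood in 2 overlapping windows of Slc37a4 and in 20.8% of all windows. GTTAAT, letters of the HNF1 site, stood in the windows of Pck1 and G6pc and in 7.1% of all windows. A pair of AGGTCA set 1 base apart, the HNF4 or PPAR type, was in 0.0396% of windows and in none of the members', and TGTTCT, of the glucocorticoid type, was in 19% of windows and in none of theirs. The Glud1 window had none of the letters searched and a GC content of 81%, against a median of 52.7% over all windows. These matches are letters in a window and do not show binding. Whether they bear on the ratios was not tested.

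The first comparison asked how far the RNA of these genes in kidneys labelled MFP2-/- differed from the wild-type pool. The mean ratio was above 0 for all 6 measured genes and for each of the 4 mice, and it ran from 0.05 for Pcx to 0.42 for Ldhb. No member passed the limma test at a Benjamini-Hochberg adjusted p of 0.05, and neither did any other gene: 0 of 16140 rows were called, 0%, with a smallest adjusted p of 0.327. At an unadjusted p under 0.05 limma had 1459 rows, 9.04% of those tested. Of the 6 members, 5 were higher at that unadjusted level, where 5.83% of all rows were. That count was 3 without mouse 4, 3 on the arrays of either dye orientation alone, 3 without limma's moderation of the spread, where Pcx was among them and Fbp1, Glud1 and Got1 were not, and 1, Fbp1, when the values were read as Cy5 over Cy3. The sign was positive in 4 of 4 mice for 6 of 6 members, against 11.6% of the 9680 named genes measured in every mouse. The members were chosen with earlier results of these data known, so these counts beside the shares of all genes are description and no test.

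Fbp1 encodes the fructose-bisphosphatase of liver and kidney, which removes a phosphate on the way to glucose (chr13:62864753-62888298). Its ratios were 0.06, 0.44, 0.25 and 0.51 in mice 1 to 4. Mice 2 and 4 were high and mouse 1 lay near 0. The mean was 0.31 ± 0.20 (SD, n = 4), a 1.24-fold ratio with a limma 95% interval of 1.07 to 1.45 (unadjusted p = 0.0135, adjusted p = 0.548).

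Slc37a4 encodes the transporter that carries glucose-6-phosphate into the endoplasmic reticulum, where the phosphatase acts (chr9:44396946-44402966). The ratios in mice 1 to 4 were 0.11, 0.43, 0.16 and 0.27. Mouse 2 was again high, and every mouse was above 0. The mean of 0.24 ± 0.14 (SD, n = 4) is 1.18-fold, with a limma interval of 1.04 to 1.34 (unadjusted p = 0.0169, adjusted p = 0.548).

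Pcx encodes pyruvate carboxylase, which makes the oxaloacetate that glucose formation from lactate starts from (chr19:4510472-4621752). Its ratios were 0.01, 0.06, 0.06 and 0.08 in mice 1 to 4, the smallest of the 6 genes in every mouse. The single arrays spread far more, between -0.43 and 0.44, with 11 of 16 above 0. The mean was 0.05 ± 0.03 (SD, n = 4), a 1.04-fold ratio with a limma interval of 0.944 to 1.14 (unadjusted p = 0.389, adjusted p = 0.765). The SD between mice, each a mean of 4 arrays, is not on the same scale as the SD of 0.30 between single repeat arrays. It was also smaller than limma's standard error of 0.15 for a mouse value from its arrays.

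Glud1 encodes the mitochondrial glutamate dehydrogenase, which releases ammonia from glutamate (chr14:34310727-34345033). Averaged over its probes, its ratios were 0.15, 0.62, 0.17 and 0.26 in mice 1 to 4. Mouse 2 stood above the other mice. Probe 18222 gave 0.17, 0.74, 0.19 and 0.18 in mice 1 to 4, and probe 19876 gave 0.14, 0.49, 0.16 and 0.33. Both probes thus put mouse 2 highest, and they had close means, 0.32 ± 0.28 for probe 18222 and 0.28 ± 0.17 for probe 19876 (SD, n = 4 each). The gene mean of 0.30 ± 0.22 (SD, n = 4) is 1.23-fold, with a limma interval of 1.05 to 1.44 (unadjusted p = 0.0193, adjusted p = 0.548). Without mouse 2 the mean was 0.19.

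Ldhb encodes the lactate dehydrogenase subunit of oxidative tissues, which forms pyruvate from lactate (chr6:142490249-142507957). Mice 1 to 4 had ratios of 0.40, 0.69, 0.09 and 0.49. Mouse 3 was low, and the other mice lay between 0.40 and 0.69. The mean of 0.42 ± 0.25 (SD, n = 4) was the largest of the members in the likely direction, a 1.34-fold ratio with a limma interval of 1.12 to 1.60 (unadjusted p = 0.00740, adjusted p = 0.548). With the values read as Cy5 over Cy3, Ldhb was the lowest member. In the likely direction it lay at the 98.4th percentile of the mean ratios of 9846 named genes.

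Got1 encodes the cytosolic aspartate aminotransferase, which moves carbon and nitrogen between aspartate and glutamate (chr19:43499752-43524605). Ratios were 0.50, 0.69, 0.09 and 0.16 in mice 1 to 4. Mice 1 and 2 were high and mice 3 and 4 low. The mean was 0.36 ± 0.28 (SD, n = 4), a 1.28-fold ratio with a limma interval of 1.06 to 1.56 (unadjusted p = 0.0199, adjusted p = 0.548).

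By mean ratio, in the likely direction, the order was Ldhb, Got1, Fbp1, Glud1, Slc37a4 and Pcx, and neighbours among the first 5 of these differed by less than the SD of either gene between mice. Slc37a4 and Pcx, with means of 0.24 and 0.05, differed by more than the SD of either. Read as Cy5 over Cy3, the order was Fbp1 at 0.19, Pcx at 0.025, Slc37a4 at 0.019, Glud1 at -0.019, Got1 at -0.056 and Ldhb at -0.16. Of the 6 limma intervals, that of Pcx included equality with the pool and the other 5 did not.

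**Figure D1:**
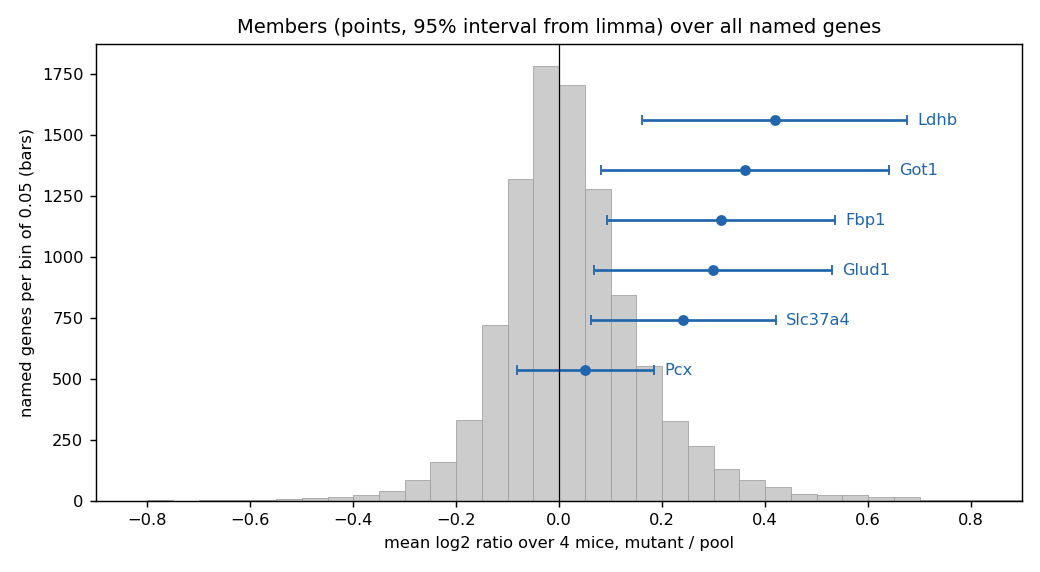
Mean log2 ratio of mutant over pool for the 6 measured members (points, with the limma 95% interval over 4 mice) over a histogram of the means of all 9846 named genes in bins of 0.05 (bars, left axis in genes). The members' means lie between 0.05 (Pcx) and 0.42 (Ldhb), on the right side of a histogram centred near 0, and the Pcx interval crosses 0. The height of a point has no scale.

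In one alternative, where all 16 arrays entered 1 fit with the mouse as a random block, 258 rows were called, and Got1 (adjusted p = 0.0265), Ldhb (adjusted p = 0.0316), Glud1 (adjusted p = 0.0354) and Fbp1 (adjusted p = 0.0497) were among them in that limma fit. Slc37a4 missed with an adjusted p of 0.0668 and Pcx with 0.787. The estimated correlation between arrays of a mouse was -0.01 in that fit, so the arrays, which share RNA, counted almost as separate samples. Read as Cy5 over Cy3 in place of mutant over pool, Ldhb had a mean of -0.16, Got1 of -0.056 and Glud1 of -0.019. The other 3 of the 6 genes stayed above 0. If the deposited values run mutant over pool, a mean under that reading follows the gap between dye orientations and not the mutant. Read as pool over mutant, all 6 means would be negative. The common positive sign of the members thus holds only for the likely direction.

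On single arrays, 77 of 96 member values were above 0, or 80.2%, against 51.2% of the values of all named genes. The median of the members was above 0 on 15 of 16 arrays. It was lowest, at -0.15, on the first array of mouse 3 with the mutant in Cy5 and highest, at 0.72, on the first array of mouse 2 with the mutant in Cy3. Ldhb and Got1 were above 0 on 14 of 16 arrays each, Fbp1 and Slc37a4 on 12 each, and Pcx on 11. Ldhb also had the widest gap between repeat arrays of the same mouse and orientation, 0.858 against -0.041 in mouse 1 with the mutant in Cy5.

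**Figure D2:**
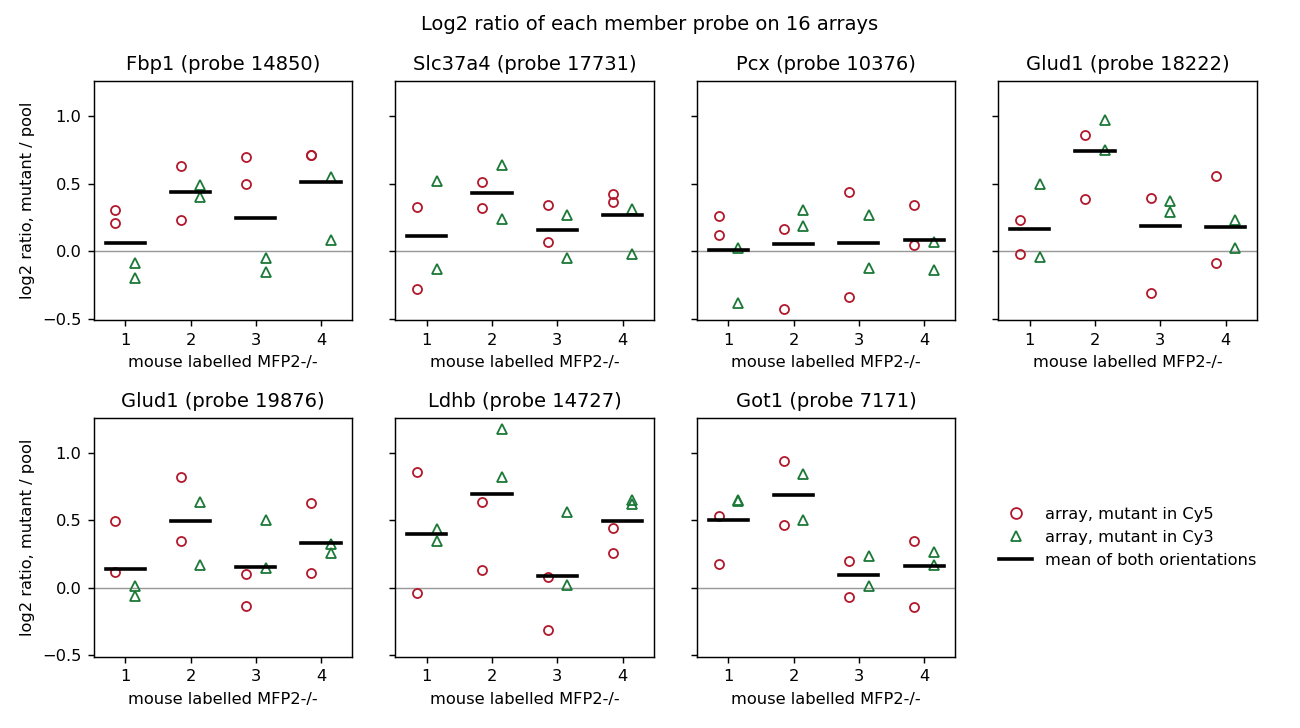
Log2 ratio of mutant over pool (vertical axis) for each of the 7 member probes on each of 16 arrays, by mouse (horizontal axis). Circles are arrays with the mutant in Cy5, triangles arrays with the mutant in Cy3, and bars the mean of both orientations. Mouse 2 is high for both Glud1 probes, mice 1 and 2 are high for Got1, and the Cy3 triangles of Fbp1 lie below 0 in mice 1 and 3.

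The dye orientations were then set side by side, since a dye effect of a gene appears as a gap between them. Fbp1 averaged 0.50 with the mutant in Cy5 and 0.13 with the mutant in Cy3. All 8 Cy5 values of Fbp1 were above 0, from 0.211 to 0.712, while 4 of its 8 Cy3 values were, the others being those of mice 1 and 3. The orientation term of Fbp1 had an adjusted p of 0.0524 in limma, and 8.4% of 15856 rows passed 0.05 for that term. Ldhb had the opposite gap, with 0.26 in Cy5 and 0.58 in Cy3 (limma adjusted p = 0.165). Slc37a4 had 0.26 in Cy5 and 0.22 in Cy3, Glud1 had 0.28 and 0.32, Got1 had 0.30 and 0.42, and Pcx had 0.08 and 0.03, all with adjusted p from 0.509 to 0.869. The median of the 6 members was 0.27 in either orientation, and Fbp1 is the gene whose size depended most on the orientation. Between array repeats, the member median was 0.31 on repeat 1 and 0.32 on repeat 2, and Slc37a4 moved most, with 0.32 on repeat 1 and 0.16 on repeat 2.

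The next comparison asked whether the mice differed from each other by more than repeat arrays did. The member median was 0.13, 0.53, 0.13 and 0.26 in mice 1 to 4. Mouse 2 had the highest ratio for Slc37a4, Glud1, Ldhb and Got1, and mouse 4 for Fbp1 and Pcx. Mouse 2 was also the highest for 56% of the 1125 named genes with a ratio above 0 in every mouse, and for 33.9% of all named genes measured in every mouse. No member passed the limma F-test between mice at an adjusted p of 0.05, a test that called 30 rows, 0.189% of 15856. The smallest p of a member was that of Got1 (unadjusted p = 0.00506, adjusted p = 0.188), with arrays of mice 1 and 2 between 0.176 and 0.941 and arrays of mice 3 and 4 between -0.144 and 0.346. Glud1 (unadjusted p = 0.0400, adjusted p = 0.414) and Fbp1 (unadjusted p = 0.0461, adjusted p = 0.438) followed, so 3 of 6 members were under an unadjusted 0.05, where 11.2% of all rows were. Ldhb had an adjusted F p of 0.505, Slc37a4 of 0.752 and Pcx of 0.996. Without mouse 2 the member median over mice was 0.22, against 0.31 with it, and it was still above 0 for all 6 genes.

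The other enzymes of the pathway were counted from lists of named genes. Of 10 glucose-forming enzymes beside the members, 6 were measured, 5 with a mean ratio above 0 and 1 below, with a median of 0.10 against 0.31 for the members and 0.01 for all named genes. None was called, and none was under an unadjusted p of 0.05. Gapdh, the dehydrogenase that runs in both directions, had a mean ratio of 0.15 ± 0.20, the isomerase Tpi1 0.11 ± 0.16 and G6pc3, the glucose-6-phosphatase form found in most tissues, 0.09 ± 0.10 (SD, n = 4 each). The list of glycolysis enzymes and regulators had 8 of 13 genes measured, 3 above 0 and 5 below, with a median of -0.04, and none was called. The pyruvate kinase gene Pkm had a ratio of 0.25 ± 0.09 and the hexokinase gene Hk1 of 0.28 ± 0.23. The phosphofructokinase gene Pfkp had -0.15 ± 0.20 (SD, n = 4 each). Some of these sizes depended on the dye. Averaged over all probes and arrays with a value, Hk1 had 0.0045 with the mutant in Cy5 and 0.55 in Cy3. In the same order Gapdh had -0.06 and 0.30, Tpi1 0.25 and -0.02, and G6pc3 0.02 and 0.16. Pfkp had -0.22 and 0.155, and Pkm 0.27 and 0.22. Genes of the other lists can depend on the dye in the same way.

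Among the genes of glutamine and ammonia handling, 12 of 16 were measured, 8 above 0 and 4 below, with a median of 0.02 and none called. Oat, the ornithine aminotransferase that feeds glutamate from ornithine, had ratios of -0.01, 1.06, 0.39 and 0.30 in mice 1 to 4, with a mean of 0.44 ± 0.45 (SD, n = 4, limma adjusted p = 0.548). Mouse 2 was high and mouse 1 near 0. Glul, the glutamine synthetase that binds ammonia, had 0.23 ± 0.21, and Slc7a8, a carrier of neutral amino acids, -0.12 ± 0.11 (SD, n = 4 each). Slc7a8 averaged 0.15 with the mutant in Cy5 and -0.40 in Cy3, Glul 0.30 and 0.17, and Oat 0.41 and 0.46.

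Of the genes of lactate, pyruvate and malate-aspartate exchange, 13 of 19 were measured, 7 above 0 and 6 below, with a median of 0.04 and none called. Mdh1, the cytosolic malate dehydrogenase that works with Got1 in the malate-aspartate shuttle, had ratios of -0.08, 0.76, 0.50 and 0.54 in mice 1 to 4 and a mean of 0.43 ± 0.36 (SD, n = 4, limma adjusted p = 0.548). Mouse 1, which was high for Got1, was the lowest for Mdh1. The mitochondrial Mdh2 had 0.15 ± 0.10, and the lactate carrier Slc16a1 had -0.19 ± 0.14 (SD, n = 4 each). Got2, the mitochondrial partner of Got1, had -0.02 ± 0.25 (SD, n = 4) and Slc25a13, an aspartate and glutamate carrier, 0.33 ± 0.42 (SD, n = 4), both named after their values were seen.

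The pyruvate dehydrogenase list had 7 of 9 genes measured, 6 above 0 and 1 below, with a median of 0.08 and none called. Pdk2, a kinase that switches the complex off, had 0.24 ± 0.17, and the subunit genes Pdha1 and Pdhb had 0.22 ± 0.26 and 0.14 ± 0.17 (SD, n = 4 each). Glycerol and fructose entry had 4 of 6 genes measured, 2 above 0 and 2 below, with a median of 0.06. Khk, the fructokinase, had 0.20 ± 0.13, and the glycerol-phosphate dehydrogenase genes Gpd1 and Gpd2 had 0.16 ± 0.31 and -0.05 ± 0.09 (SD, n = 4 each). All 3 measured glucose transporters of 5 had a mean above 0. Slc2a2, the basolateral carrier of the proximal tubule, had 0.28 ± 0.17, Slc5a1 0.12 ± 0.22 and Slc2a4 0.03 ± 0.12 (SD, n = 4 each). Slc2a2 averaged 0.03 with the mutant in Cy5 and 0.46 in Cy3, Slc5a1 -0.07 and 0.32, and Slc2a4 0.05 and -0.01. All 3 measured genes of proximal acid-base transport of 6 were above 0 as well, with the carbonic anhydrase genes Car2 at 0.18 ± 0.15, Car12 at 0.13 ± 0.20 and Car14 at 0.05 ± 0.17 (SD, n = 4 each). The regulators had 11 of 16 genes measured, 7 above 0 and 4 below, with a median of 0.06. Ppara, the receptor for fatty acids, had 0.10 ± 0.06, the kinase subunit Prkaa2 0.13 ± 0.14 and the coactivator Ppargc1a 0.19 ± 0.31 (SD, n = 4 each). Over all these lists, each gene once, 67 of 99 genes were measured, 44 with a mean ratio above 0 and 23 below, the median was 0.06 and limma called none. At an unadjusted p under 0.05 there were 8 higher and 1 lower, Slc16a1, of these 67, and 634 higher and 242 lower of the 9846 named genes. The counts above and below 0 are to be read against 54.1% of all named genes above 0. The members' median of 0.31 was thus above that of each of these lists.

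**Figure D3:**
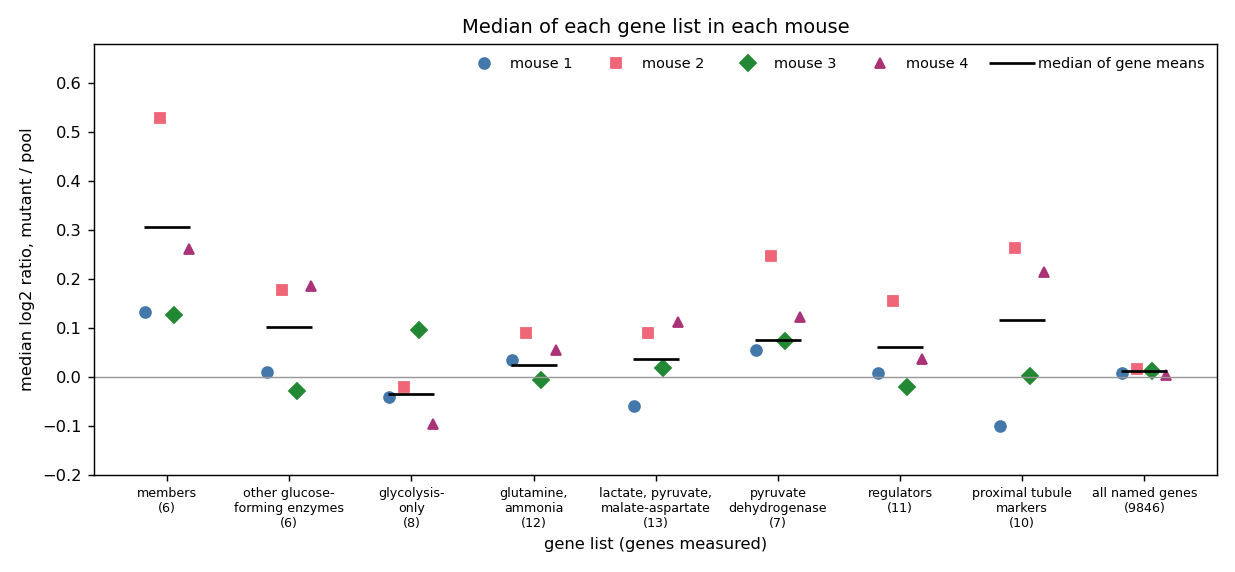
Median log2 ratio of mutant over pool of each gene list in each of 4 mice (symbols) and the median of the gene means (bars), with the number of genes measured under each list. The members have the highest bar, at 0.31, and mouse 2 lies above the other mice there, at 0.53, while the medians of all named genes lie between 0.00 and 0.02 in every mouse.

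Glucose formation in the kidney is a function of the proximal tubule, though several members, Ldhb, Got1 and Glud1 among them, are expressed in other segments too. The markers of the proximal tubule were read beside the members. Of 13 markers, 10 were measured, 7 with a mean ratio above 0 and 3 below, with a median of 0.12 and none called. Their median was -0.10, 0.26, 0.00 and 0.21 in mice 1 to 4, so mouse 2 was highest and mouse 4 next for the markers as for the members. That order was not particular to the proximal tubule. It also held for the medians of the pyruvate dehydrogenase, glutamine and ammonia, and regulator lists, though not for the other pathway lists. Napsa, an aspartic protease of the tubule, had 0.31 ± 0.11, the endocytic receptor gene Cubn 0.24 ± 0.10 and the phosphate carrier gene Slc34a1 -0.20 ± 0.09 (SD, n = 4 each). Miox, the inositol oxygenase of the proximal tubule, had ratios of -0.25, 1.25, 0.67 and 0.98 in mice 1 to 4 and was the only one of the 10 to pass the limma F-test between mice (adjusted p = 0.0332); it is named after its values were seen. The range of marker means was -0.20 to 0.66. The part of the tubule content of a sample in the members' ratios was not tested, and since the values are ratios, the level of a marker in either RNA cannot be read from them.

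The genes most like the members over the arrays were sought by the root mean square difference from the members' median on each of the 16 arrays, among 9059 other named genes with a value on every array. The closest were Acp6 at 0.116, Rplp2 at 0.132, Myl12b at 0.135, Hsd3b3 at 0.136 and Aqp6 at 0.137, where the median gene was at 0.447. Rplp2 encodes a ribosomal protein, Myl12b a myosin light chain and Aqp6 a water channel of intercalated cells. Acp6, a lipid phosphatase, had ratios of 0.13, 0.53, 0.10 and 0.28 in mice 1 to 4, close to the members' medians of 0.13, 0.53, 0.13 and 0.26. Among the members the difference was 0.147 for Glud1, 0.205 for Slc37a4, 0.232 for Got1, 0.302 for Ldhb, 0.312 for Fbp1 and 0.358 for Pcx. Each member is part of the median it is set against, which can lower its difference beside that of another gene. The genes were compared on shared arrays, and a likeness of this kind includes what an array adds to every gene.

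**Figure D4:**
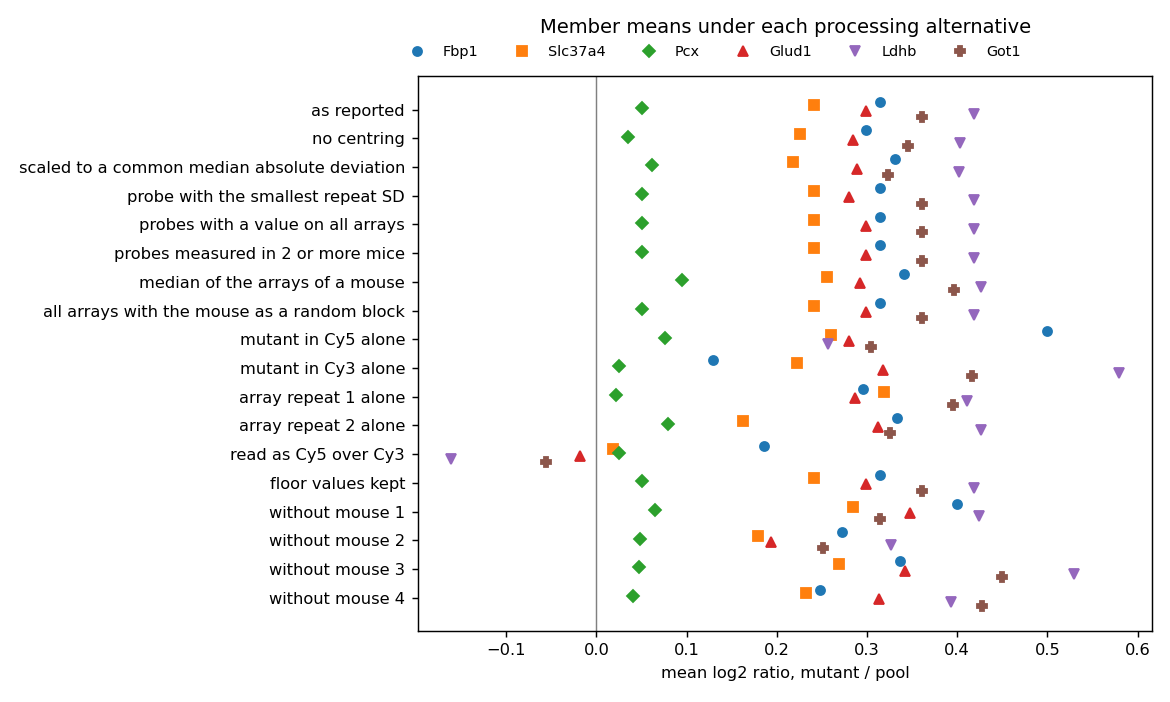
Mean log2 ratio of mutant over pool of each member (symbols) as reported and under 17 other ways of processing (rows). The members lie above 0 in every row but the one that reads the values as Cy5 over Cy3, where Ldhb is at -0.16, Got1 at -0.056 and Glud1 at -0.019. Fbp1 and Ldhb move in opposite directions when arrays of a single dye orientation are used.

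The plot of member means by processing shows how far each size depends on these choices. Fbp1 ran from 0.13 with the mutant in Cy3 alone to 0.50 with the mutant in Cy5 alone, and all of its 19 alternatives were above 0. These counts include alternatives that could not move a mean. The random block and the changes of moderation alter only the test, and probe choice cannot alter a gene with 1 probe. Pcx stayed between 0.02 and 0.09. Ldhb ran from -0.16 to 0.58, Got1 from -0.056 to 0.45 and Glud1 from -0.019 to 0.35, each with 18 of 19 alternatives above 0. Slc37a4 ran from 0.02, also under the reading as Cy5 over Cy3, to 0.32.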

How the data were processed

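The authors deposited a log2 ratio for most probes on each array, with 127 to 618 of 20355 missing. Their steps of background correction and normalisation were not given in the sources used here, nor were the base of the log or the direction of the ratio, which were inferred. Gene names came from the platform annotation, updated through RefSeq (GRCm38.p6): 14030 probes had 1 symbol, 5 several and 6320 none. Arrays were centred on their medians, which lay between -0.149 and 0.098. Values with an absolute size over 10, 510 in all and none of a member, were set missing. A mouse's value is the mean within each dye orientation and then of both. Probes of 1 symbol were averaged. Requiring both orientations in 3 or more mice left 16140 rows, of which 9846 were named genes.

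The mean of 4 mice was tested against 0 with limma 3.58.1 (lmFit and eBayes, R 4.3.3), two-sided, with Benjamini-Hochberg adjustment over all rows at 0.05. Nothing beside the animal numbers says how the mice were reared or sampled, and the pool enters as 1 sample. Differences between mice and the dye term came from a limma fit to all 16 arrays, over 15856 rows. The code was tested on simulated data. Mice were told apart by the animal numbers of the labels; 1 mouse has different short names in its title and its source label. Named were all members, of each pathway list and of the proximal tubule markers the 3 genes of smallest p, and the 5 genes most like the members; other genes were named after their values were seen. Alternatives changed centring, scaling, probe choice, missing values, the summary of a mouse's arrays, a random mouse block (statmod 1.5.0), dye, repeat, direction, floor values, moderation and the mice used. The members and lists were chosen with earlier results of these data known.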

Additional observations from a re-analysis of the deposited data

Results flagged for a closer look

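Glud1 probe 18222 had 1 mouse far from the others. Mouse 2 was at 0.74, against 0.17 in mouse 1, 0.19 in mouse 3 and 0.18 in mouse 4, a gap of 0.965 of the whole range, which is above the 95% critical value of Dixon's test for 4 samples. The arrays overlapped: the lowest of mouse 2 was at 0.384, and single arrays of mouse 4 (0.559), mouse 1 (0.496) and mouse 3 (0.392) were above it. The other Glud1 probe, 19876, also had mouse 2 highest, with a gap of 0.461 of its range. Chance alone puts about 1 in 20 such groups past the critical value, and 9 groups were examined here: 6 genes, the member median and both Glud1 probes. The arrays of mouse 2 had the most missing values of the series. The cause was not tested.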

How the results depend on the processing

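No gene was called against the pool as reported, nor under 15 of 19 alternatives. The random mouse block called 258 (209 higher, 49 lower), the reading as Cy5 over Cy3 12, the mutant in Cy5 alone 3 and the mutant in Cy3 alone 1. The member median of 0.31 lay between 0.22 and 0.34 when each mouse was left out and was -0.000109 when read as Cy5 over Cy3. That reading also turned the means of Glud1 (-0.019), Ldhb (-0.16) and Got1 (-0.056). Another 107 member values kept their direction and side of the threshold, and 4 passed it, all under the random block. The direction was fixed in advance where an alternative altered only the test. Between mice, 30 rows were called as reported, 16 after scaling, 68 with the probe of smallest repeat SD, 2 read as Cy5 over Cy3, and 5 to 13 without 1 mouse, where fewer arrays enter; no member's call changed. For dye orientation, 1332 rows were called as reported and 2740 without centring. When 1 mouse was left out, from 44 (without mouse 3) to 2701 (without mouse 2) were called. Read as Cy5 over Cy3, the orientation term called 260 rows. The sign of the Cy3 arrays is turned for that reading. If the deposited values run mutant over pool, the term then measures mutant against pool and no dye effect. The orientation gap (Cy5 minus Cy3) of Glud1, -0.038 as reported, was 0.058 without centring, 0.061 with the probe of smallest repeat SD and -0.084 to 0.055 when 1 mouse was left out. In the same way that of Pcx, 0.051 as reported, ran from -0.056 (without mouse 1) to 0.19, and that of Slc37a4, 0.037 as reported, from -0.033 (without mouse 4) to 0.11. Fbp1's dye gap passed the threshold without centring (adjusted p = 0.0147), with the probe of smallest repeat SD (adjusted p = 0.0491) and without mouse 2 (adjusted p = 0.0149) in limma. Each ratio already sets a mutant against the pool on the same array. Pairing each mutant with its own control animal was not possible, because the pool is a single sample with no replicate numbers of its own. The causes of these shifts were not tested. Limits are 4 mice, 1 pool without its own spread, an unstated direction and no intensities.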

Other observations

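The marker genes named here were chosen after their values were seen. Markers of other nephron segments also had mean ratios well above 0 for single genes, though limma called none of them against the pool. Slc12a1, the sodium, potassium and chloride carrier of the thick ascending limb, had ratios of 0.39, 0.91, 0.49 and 0.45 in mice 1 to 4, while Umod, the other measured marker of that segment, had a mean of -0.15 ± 0.20 (SD, n = 4). Aqp2, the water channel of principal cells, had ratios of 0.43, 0.81, 0.23 and 0.38. S100g, a calcium-binding protein of the distal and connecting tubule, had 0.70, 1.16, 0.26 and 0.48. Mouse 2 was the highest for each of Slc12a1, Aqp2 and S100g, as it was for 4 of the 6 members. The other measured distal and connecting tubule markers were highest elsewhere, Wnk4 and Trpm6 in mouse 3 and Pvalb in mouse 4. The median of the 4 measured markers of that list was 0.15, 0.13, 0.22 and 0.16 in mice 1 to 4, lowest in mouse 2. The podocyte marker Podxl had 0.25, 0.40, -0.08 and 0.34.

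The principal cell list, with Aqp2 as its single measured gene, had a median of 0.46, above the members' 0.31. The 2 measured markers of the thick ascending limb had a median of 0.20, and the 4 of the distal and connecting tubule 0.15. The 6 measured endothelial markers had a median of 0.09, the 6 immune markers -0.02, the 4 fat markers 0.02, the 2 red blood cell markers -0.21, the 3 intercalated cell markers -0.04 and the 2 adrenal markers -0.07. Star, an adrenal gene of steroid synthesis, had ratios of 0.20, -0.75, 0.64 and -0.04 in mice 1 to 4 and passed the limma F-test between mice (adjusted p = 0.00916). Cyp11a1, the other measured adrenal marker, had -0.25, -0.17, 0.12 and -0.29 and did not pass that limma F-test (adjusted p = 0.693). The place of adrenal genes beside the kidney samples was not tested.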
